A study of Homo sapiens with 11 samples.

Results

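Transcripts of 34 p53 target genes were followed in the human melanoma line SK-MEL-103, an established culture, after 6 days of drug treatment. The genes were taken from a fixed list of members, out of 61542 genes with a transcript in the tables, and were grouped by function: 6 death receptors, 4 DNA repair genes, 6 genes of metabolism and antioxidant defence, 8 genes of growth arrest and growth control, and 10 genes of cell death, mitochondria, lysosome and other roles. Cells had been given 0.5 µM tozasertib (n = 3, replicates 1, 2 and 4), 0.25 µM etoposide (n = 4) or the solvent DMSO (n = 4), with medium and drug renewed on day 3. Tozasertib inhibits the Aurora kinases, which drive mitosis, and etoposide traps topoisomerase II on DNA and leaves breaks. The study used both drugs to make the cells senescent, a lasting exit from the cell cycle, in a search for ways to kill such cells. All samples came from this 1 line, and the DMSO samples served as reference for both drugs.

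The transcription factor p53 is held low in unstressed cells by the ubiquitin ligase MDM2, itself a p53 target. Damaged DNA and failed mitosis stabilise the protein, which binds pairs of a 10-base decamer sequence near its target genes and raises their transcription. Its targets arrest the cell cycle, repair DNA, lower reactive oxygen species or prepare the cell for death, and CDKN1A, the cyclin-dependent kinase inhibitor p21, is the target best known for arrest in senescence.

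The promoters of the genes are shown first, since the members share a presumed regulator. RefSeq start sites (GRCh38.p14) were available for 27 of the 34 genes, as windows of 300 bases running from 250 bases before to 50 after each start. A single decamer that met the p53 decamer consensus with no mismatch was found in a window of 7 of these 27 genes (25.93%), against 2202 of 27305 genes with a window (8.06%). A paired match, meaning 2 decamers at most 13 bases apart with intact cores and at most 2 mismatches in all, was found for 3 of the 27 (11.11%), against 495 of all 27305 (1.81%). Counted by windows, single matches lay in 7 of 42 member windows (16.67%) and 2329 of 35116 windows in all (6.63%), and paired matches in 3 of 42 (7.14%) and 512 of 35116 (1.46%). The consensus is its own reverse complement, so 1 search covers both strands. These are matches of letters within a short window, not measured binding, and a window without a match says only that these letters are not in it. The matches are printed with up to 25 bases on either side, ending at the start site, with the decamers in capitals. For each gene 1 match is shown, and the FAS window held 2 paired matches, of which 1 is printed.
DDB2 paired match, chr11:47214979-47214999, plus strand, bases 6 to 26 after the start, no mismatch: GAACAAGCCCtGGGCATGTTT
FAS paired match, chr10:88991284-88991353, plus strand: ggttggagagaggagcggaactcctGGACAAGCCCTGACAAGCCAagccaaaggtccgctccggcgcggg
AEN paired match, chr15:88621281-88621339, plus strand: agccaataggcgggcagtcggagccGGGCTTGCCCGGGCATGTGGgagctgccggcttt
SESN1 single match, chr6:109009003-109009062, minus strand: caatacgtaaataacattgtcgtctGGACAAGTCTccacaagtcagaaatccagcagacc
PLK2 single match, chr5:58460184-58460243, minus strand: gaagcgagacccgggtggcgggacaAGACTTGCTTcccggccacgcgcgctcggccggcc
RPS27L single match, chr15:63157502-63157561, minus strand: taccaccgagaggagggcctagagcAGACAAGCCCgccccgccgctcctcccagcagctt
FDXR single match, chr17:74872995-74873030, minus strand: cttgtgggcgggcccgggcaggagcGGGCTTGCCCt

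Libraries held 27882689 to 56534763 reads. Levels between samples are given as CPM, counts per 1000000 reads of the sample with TMM scaling, and a gene was called where edgeR's quasi-likelihood test over 17033 genes gave an adjusted p under 0.05. The melanocyte lineage factors SOX10, MITF and PAX3 were measured in every group, while 6 of 11 melanoma markers (MLANA, TYR, DCT, TYRP1, S100A1, KIT) stayed under 1 CPM in every sample, with MLANA at 0 reads. The melanoma list summed to 417.0 to 424.8 CPM with tozasertib, 348.8 to 369.0 CPM with etoposide and 516.1 to 582.8 CPM with DMSO. This sum was almost all SOX10, with means of 379.8, 323.3 and 514.4 CPM with tozasertib, etoposide and DMSO. PAX3 was also lower with the drugs (24.9 and 18.9 CPM against 29.2 CPM). MITF, S100B and PMEL were higher on average: MITF had 9.26 and 9.45 against 7.69 CPM, S100B 3.31 and 2.19 against 1.18 CPM, and PMEL 3.86 and 0.40 against 0.33 CPM. Fibroblast markers summed to 120.1 to 124.8 CPM with tozasertib, 138.5 to 155.3 CPM with etoposide and 27.97 to 32.23 CPM with DMSO, with 5 of 8 under 1 CPM throughout (COL1A2, COL3A1, DCN, PDGFRA, THY1). These sums were almost all LUM and COL1A1. With tozasertib, etoposide and DMSO, LUM had 101.7, 106.3 and 23.1 CPM on average and COL1A1 18.8, 36.2 and 3.64 CPM. PDGFRB was lower with the drugs (1.44 and 1.15 CPM against 3.01 CPM). Immune markers, 6 of 8 under 1 CPM, summed to 44.4 to 49.1 CPM with tozasertib, 35.8 to 42.96 CPM with etoposide and 56.7 to 69.3 CPM with DMSO. Nearly all of this was CD68 (44.9, 39.2 and 62.8 CPM on average). Keratinocyte markers, 5 of 8 under 1 CPM, summed to 50.8 to 59.4 CPM with tozasertib, 56.3 to 58.96 CPM with etoposide and 48.6 to 68.7 CPM with DMSO, and endothelial markers to at most 1.64 CPM in any sample. The part of these lists in the results was not tested, and in bulk samples fewer cells of a type and less RNA per cell cannot be told apart. The DMSO libraries differed along gene length: deviation from the group mean correlated with gene length across genes at -0.476 (Spearman) in DMSO replicate 1 and 0.401 in DMSO replicate 4, against -0.076 to 0.111 in the drug libraries. RPS27L, TRIAP1, FDXR, TP53I3, PHLDA3, NINJ1, DDB2, BTG2, BLOC1S2 and CLCA2 each had their highest DMSO value in DMSO replicate 1. FAS, TNFRSF10A, TNFRSF10B, EDA2R, XPC, TP53INP1, PLK2, FBXW7, ZMAT3, ANKRA2 and CYFIP2 each had their lowest DMSO value there.

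The set as a whole was higher under both drugs. The members and the gene lists below were chosen with earlier results of these data known. The shares of all genes set beside their counts are therefore a description and no test of the set. Of the 34 genes, 32 had enough reads to be tested, and TNFRSF10C and TNFRSF10D did not. Under tozasertib 30 of 32 rose and 0 fell, where 29.9% of all tested genes were called higher and 29.4% lower against DMSO. Under etoposide 28 of 32 rose and 0 fell, where 27.7% of all tested genes were called higher and 30.6% lower. No member was lower than DMSO at an unadjusted p under 0.05 either, and DESeq2 also called 0 lower under both drugs. The median log2 fold change of the tested members was 1.03 with tozasertib, where all tested genes had a median of 0.02, and 0.85 with etoposide, where all tested genes had a median of -0.01. At least 2-fold higher were 17 members with tozasertib, where 12.2% of all tested genes met this rule, and 14 members with etoposide, where 10.2% did. Summed over the 34 genes, the level was 4366 ± 115.7 CPM with tozasertib and 4053 ± 59.7 CPM with etoposide, against 2067 ± 43.3 CPM with DMSO (SD, n = 3, 4 and 4). Without DMSO replicates 1 and 4 the counts of members higher were 31 and 29, and with the trend along gene length removed they were 30 and 29, for tozasertib and etoposide.

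**Figure D1:**
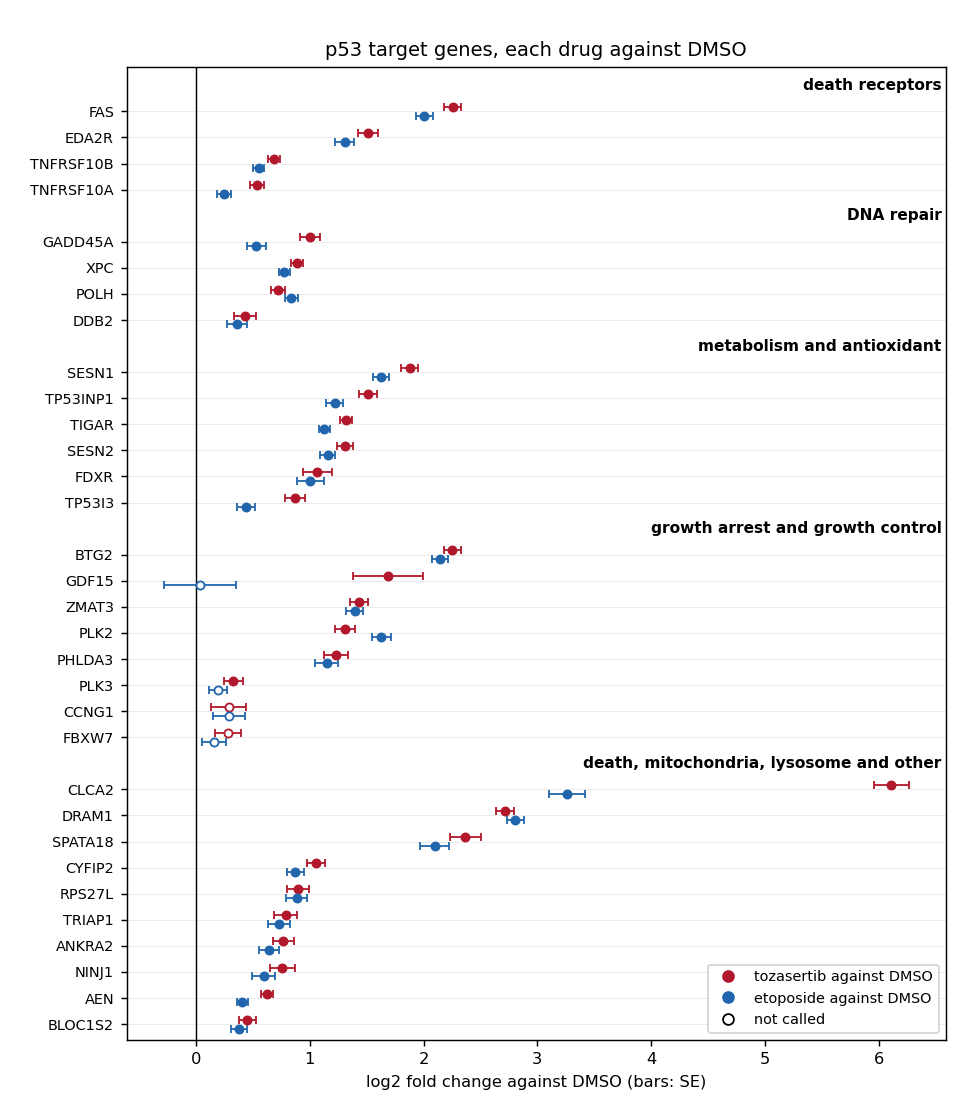
Log2 fold change of the 32 tested p53 target genes against DMSO, by function, for tozasertib (red, upper of each row) and etoposide (blue); bars are SE and open points were not called. All points lie right of 0, and CLCA2 stands farthest out, at 6.11 with tozasertib and 3.26 with etoposide.

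Between genes, levels were compared per transcript length as TPM. RPS27L, a ribosomal protein paralogue, was the most abundant member in each group (787 ± 20.9 TPM with tozasertib, 753 ± 28.3 TPM with etoposide and 389 ± 22.2 TPM with DMSO), and GADD45A was second in each (501 ± 18.0 TPM with tozasertib, 345 ± 17.0 TPM with etoposide and 217 ± 34.5 TPM with DMSO). With DMSO the order went on with TNFRSF10B, PLK2 and CCNG1 at 131 ± 18.5, 126 ± 28.3 and 112 ± 22.8 TPM, neighbours that did not differ beyond their spread. TNFRSF10D, TNFRSF10C, CLCA2 and GDF15 were the lowest with DMSO, all under 1 TPM on average. DRAM1 was 6th with tozasertib at 226 ± 16.1 TPM, 4th with etoposide at 231 ± 18.4 TPM and 16th with DMSO at 29.2 ± 5.30 TPM. CLCA2 was 25th with tozasertib at 32.4 ± 5.22 TPM, 31st with etoposide at 4.35 ± 0.280 TPM and 32nd with DMSO at 0.422 ± 0.0787 TPM.

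**Figure D2:**
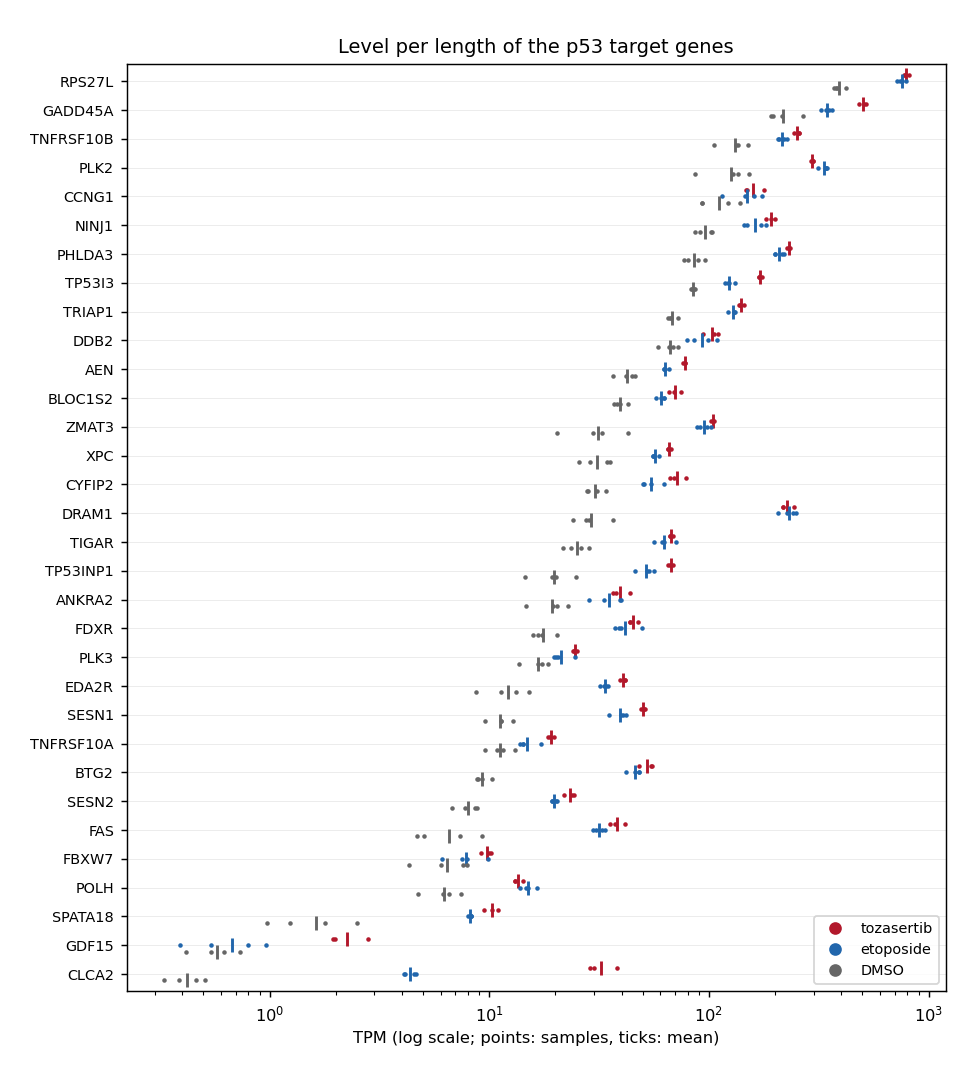
Level per length (TPM, log scale) of the 32 tested p53 target genes, ordered by their mean with DMSO, for tozasertib (red), etoposide (blue) and DMSO (grey); points are samples and ticks are means. RPS27L is at the top at 787 TPM with tozasertib and 389 TPM with DMSO, and CLCA2 at the bottom spans the widest range between group means, 32.4 TPM with tozasertib and 0.422 TPM with DMSO.

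Death receptors carry a death signal from outside the cell to caspase-8. FAS, the receptor for FAS ligand, had 39.7, 39.8 and 40.5 CPM with tozasertib and 34.2, 35.2, 32.8 and 32.6 CPM with etoposide, against 7.53, 7.75, 9.19 and 8.997 CPM with DMSO. The 3 groups did not overlap, and every drug-treated sample was above every DMSO sample. FAS rose by 2.25 ± 0.08 log2 units (SE, adjusted p = 1.06e-10) with tozasertib and by 2.01 ± 0.07 (adjusted p = 1.49e-10) with etoposide. FAS, with up to 2321 reads in a sample, overlaps STAMBPL1 on the same strand (up to 431 reads) and ACTA2 on the opposite strand (up to 1266 reads), so reads of these genes may be split between them. EDA2R, a receptor for ectodysplasin A2, had 79.96, 80.0 and 75.8 CPM with tozasertib and 70.7, 65.8, 69.7 and 66.7 CPM with etoposide, against 23.6, 25.5, 29.9 and 31.3 CPM with DMSO. Its groups were also apart, and it was 2.85-fold and 2.47-fold higher with tozasertib and etoposide (adjusted p = 8.62e-09 and 1.89e-08). The difference of EDA2R between the drugs missed the threshold (adjusted p = 0.155).

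The 4 TRAIL receptors lie next to each other on chromosome 8, between 23020133 and 23225102 (GRCh38), and were far apart in level. TNFRSF10B (DR5), a signalling receptor for TRAIL, had 486, 480.1 and 508 CPM with tozasertib and 455, 442, 440.5 and 452 CPM with etoposide, against 289, 309.6, 305 and 319 CPM with DMSO. It was the most abundant receptor of the set in every sample and was 1.61-fold and 1.46-fold higher under the 2 drugs (adjusted p = 1.21e-07 and 4.90e-07). TNFRSF10A (DR4), the other signalling receptor, had 28.57, 27.9 and 28.65 CPM with tozasertib and 22.1, 22.8, 23.4 and 24.6 CPM with etoposide, against 18.55, 20.2, 19.3 and 20.4 CPM with DMSO. Its groups did not overlap, and it was 1.45-fold above DMSO with tozasertib (adjusted p = 9.28e-06) and 1.18-fold with etoposide (adjusted p = 0.00324). The decoy receptors TNFRSF10C and TNFRSF10D, which bind TRAIL without passing on a death signal, were near the limit of detection: TNFRSF10C had 27, 23 and 15 reads in all with tozasertib, etoposide and DMSO, and TNFRSF10D had 2, 1 and 1. TNFRSF10C shares its strand with 2 overlapping genes of the annotation, so reads of these genes may be split between them. For both decoys the samples of the groups overlapped and no difference was detectable at this depth.

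Of 13 listed genes of death receptor signalling, ligands among them, 12 were tested. The gene of FAS ligand, FASLG, was at 0 CPM in every group and was not tested. With tozasertib 7 were called higher and 1 lower (median 0.32), where the shares of all tested genes were 29.9% and 29.4%, and with etoposide 6 higher and 1 lower (median 0.19), where they were 27.7% and 30.6%. TNFSF10, which encodes TRAIL itself, had 8.45 ± 0.604 CPM with tozasertib and 1.19 ± 0.332 CPM with etoposide, against 0.723 ± 0.218 CPM with DMSO. It was 11.7-fold above DMSO with tozasertib (adjusted p = 3.47e-08), 1.66-fold with etoposide (adjusted p = 0.0225), and 7.07-fold higher with tozasertib than with etoposide (adjusted p = 2.70e-06). The adaptor FADD was the gene that fell, to 41.1 ± 3.18 CPM with tozasertib and 41.6 ± 0.579 CPM with etoposide, against 63.2 ± 9.81 CPM with DMSO (adjusted p = 1.42e-04 and 8.53e-05). The initiator caspases CASP8 and CASP10 and the caspase-8 inhibitor CFLAR rose under both drugs, CFLAR to 79.8 CPM with tozasertib and 66.2 CPM with etoposide, against 41.2 CPM with DMSO.

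All 4 DNA repair members rose under both drugs, by at most 1.00 log2 units. XPC, which recognises bulky lesions in nucleotide excision repair, had 141, 139 and 142 CPM with tozasertib and 131, 128, 129 and 132.5 CPM with etoposide, against 71.5, 80.2, 74.2 and 78.6 CPM with DMSO. Its groups were apart, at 1.84-fold above DMSO with tozasertib and 1.71-fold with etoposide (adjusted p = 1.38e-08 and 2.58e-08). The difference of XPC between the drugs missed the threshold (adjusted p = 0.233). POLH, the polymerase eta that copies past ultraviolet lesions, had 40.5, 39.3 and 41.1 CPM with tozasertib and 45.5, 44.3, 41.55 and 44.03 CPM with etoposide, against 24.4, 26.4, 23.0 and 24.4 CPM with DMSO. It was 1.64-fold above DMSO with tozasertib and 1.79-fold with etoposide (adjusted p = 4.76e-07 and 5.16e-08), and its tozasertib samples all lay below its etoposide samples without passing the test between drugs (log2 -0.12, adjusted p = 0.247). On the opposite strand POLH overlaps GTPBP2, which had up to 5989 reads in a sample, where POLH had up to 2369. The libraries were strand-specific, but the strand setting of the read assignment is not given in the sources used here.

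GADD45A, a stress protein that binds PCNA and p21, separated the drugs. It had 299.7, 315 and 331 CPM with tozasertib and 209.8, 231, 229 and 239.8 CPM with etoposide, against 159, 185, 154 and 132 CPM with DMSO. All 3 groups were apart, at 2.00-fold above DMSO with tozasertib, 1.44-fold with etoposide, and 1.39-fold between the drugs (adjusted p = 8.48e-07, 1.50e-04 and 0.00493). DDB2, the damage sensor that carries the paired match without mismatch shown above, moved least of the 4. It had 106, 107 and 94.7 CPM with tozasertib and 111, 102, 91.5 and 86.3 CPM with etoposide, against 82.85, 78.1, 77.5 and 66.75 CPM with DMSO. The drug samples were all above the DMSO samples, by 0.43 ± 0.09 and 0.36 ± 0.09 log2 units (SE, adjusted p = 0.00156 and 0.00327), and the drugs overlapped. With length-scaled counts the etoposide difference of DDB2 was 0.30 and missed the threshold (adjusted p = 0.0712).

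Of 19 other listed genes of excision repair and lesion bypass, 6 were higher and 10 lower with tozasertib (median -0.14), where 29.9% of all tested genes were called higher and 29.4% lower. With etoposide 4 were higher and 10 lower (median -0.18), where 27.7% of all tested genes were called higher and 30.6% lower. The counts of higher genes are near these shares of all genes, while the counts of lower genes, 10 of 19 under each drug, are above them. DDB1, the partner of DDB2, had 265 CPM with tozasertib and 289.7 CPM with etoposide, against 293 CPM with DMSO, and passed the test narrowly with tozasertib (adjusted p = 0.0494) and not with etoposide (adjusted p = 0.799). The nuclease subunit ERCC1 fell by 0.64 log2 units with tozasertib and 0.80 with etoposide, and RPA1 and RPA3, subunits of the single-strand binding protein RPA, fell by 0.84 and 1.49 with tozasertib and by 0.63 and 1.18 with etoposide. The helicase gene ERCC2, the nuclease gene ERCC5 and ERCC6 of transcription-coupled repair rose under both drugs, ERCC6 by 0.75 with tozasertib and 0.85 with etoposide.

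**Figure D3:**
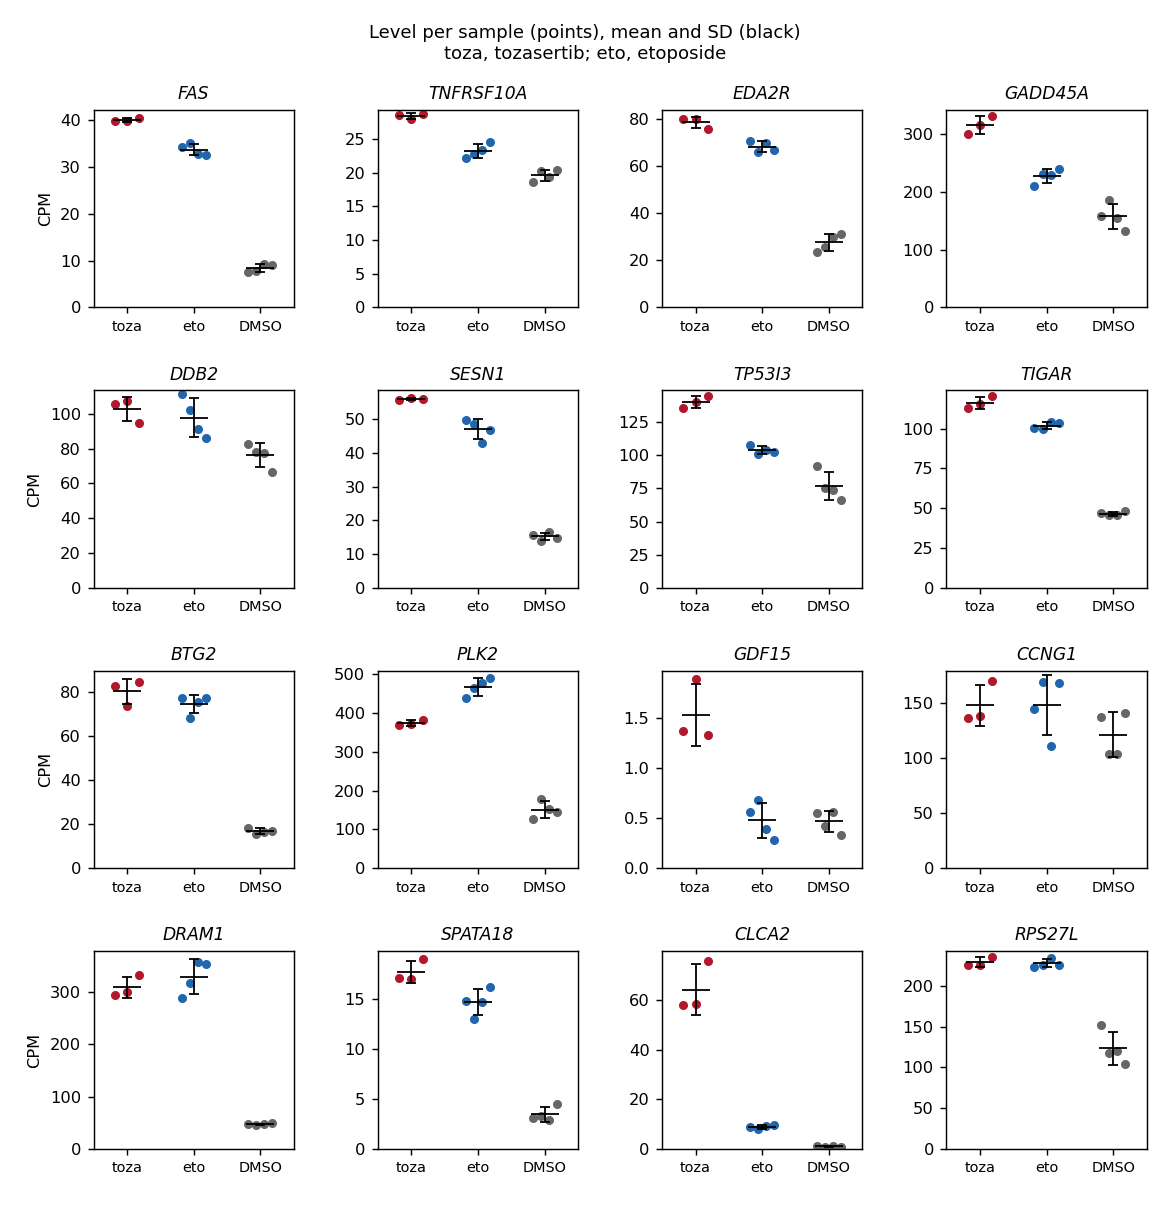
CPM in each sample for 16 p53 target genes, with tozasertib (red), etoposide (blue) and DMSO (grey) from left to right; black marks are mean and SD, and each panel starts at 0. CLCA2 and GADD45A differ between the drugs, PLK2 is lower with tozasertib (368 to 381 CPM) than with etoposide (437 to 490.4 CPM), and the groups of CCNG1 overlap.

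All 6 genes of metabolism and antioxidant defence rose under both drugs, with medians of 1.31 log2 units with tozasertib and 1.14 with etoposide. SESN1, a sestrin that restrains the growth kinase mTORC1 and limits peroxides, had 55.7, 56.4 and 55.9 CPM with tozasertib and 49.6, 48.5, 43.0 and 46.85 CPM with etoposide, against 15.7, 13.9, 16.5 and 14.8 CPM with DMSO. Its 3 groups were apart, at 3.67-fold above DMSO with tozasertib and 3.08-fold with etoposide (adjusted p = 2.79e-10 and 5.10e-10). SESN2, its paralogue, ran from 49.1 to 55.1 CPM with tozasertib and from 46.05 to 48.1 CPM with etoposide, against 19.1 to 22.5 CPM with DMSO, 2.48-fold higher with tozasertib and 2.23-fold with etoposide (adjusted p = 4.30e-09 and 7.85e-09).

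TIGAR, a fructose-2,6-bisphosphatase that slows glycolysis and favours NADPH production, had 113, 115 and 120.2 CPM with tozasertib and 100.3, 99.5, 104 and 103 CPM with etoposide, against 46.95, 45.6, 45.75 and 48.25 CPM with DMSO. It was 2.49-fold above DMSO with tozasertib and 2.18-fold with etoposide, with no overlap (adjusted p = 3.01e-10 and 6.04e-10). TP53INP1, a p53 cofactor with a role in autophagy, ran from 168.5 to 178 CPM with tozasertib and from 125.3 to 153.5 CPM with etoposide, against 55.2 to 67.3 CPM with DMSO, 2.85-fold higher with tozasertib and 2.33-fold with etoposide. FDXR, the mitochondrial ferredoxin reductase, had 51.2, 51.7 and 57.8 CPM with tozasertib and 58.2, 50.6, 49.7 and 47.0 CPM with etoposide, against 33.6, 24.1, 23.5 and 21.3 CPM with DMSO. The highest DMSO value of FDXR was that of replicate 1, the drugs overlapped, and the gene was 2.09-fold above DMSO with tozasertib and 2.01-fold with etoposide (adjusted p = 1.18e-05 and 1.06e-05).

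TP53I3 (PIG3), a quinone oxidoreductase, had the smallest change of the 6, and the drugs differed. It had 136, 140.5 and 145 CPM with tozasertib and 108, 101, 104 and 103 CPM with etoposide, against 91.7, 75.05, 73.8 and 66.45 CPM with DMSO. The groups did not overlap, and the differences were 0.87 ± 0.09 with tozasertib, 0.44 ± 0.08 with etoposide and 0.43 ± 0.09 between the drugs (SE, adjusted p = 1.74e-06, 4.24e-04 and 0.00559).

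The 8 genes of growth arrest and growth control were mixed: 6 rose with tozasertib and 4 with etoposide, and CCNG1 and FBXW7 passed the test under neither drug. BTG2, an antiproliferative factor that promotes mRNA decay, had 83.0, 73.7 and 84.6 CPM with tozasertib and 77.4, 68.5, 75.5 and 77.4 CPM with etoposide, against 18.5, 15.5, 16.6 and 16.95 CPM with DMSO. The drugs overlapped each other and were far from DMSO, at 4.76-fold higher with tozasertib and 4.42-fold with etoposide (adjusted p = 1.04e-10 and 8.42e-11). ZMAT3, an RNA-binding zinc finger protein, ran from 360.5 to 369 CPM with tozasertib and from 337 to 366 CPM with etoposide, against 117 to 156 CPM with DMSO, 2.69-fold higher with tozasertib and 2.63-fold with etoposide. PHLDA3, which blocks the kinase AKT at the membrane, ran from 229 to 240.0 CPM with tozasertib and from 217 to 228 CPM with etoposide, against 85.65 to 128 CPM with DMSO, 2.35-fold higher with tozasertib and 2.22-fold with etoposide.

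PLK2, a polo-like kinase of the centrosome and the stress response, was the member called lower with tozasertib than with etoposide. It had 368, 373 and 381 CPM with tozasertib and 437, 465, 476 and 490.4 CPM with etoposide, against 128, 179, 152 and 145 CPM with DMSO. Its groups were apart, at 2.48-fold above DMSO with tozasertib and 3.09-fold with etoposide (adjusted p = 4.55e-08 and 3.71e-09), and tozasertib was below etoposide by 0.32 ± 0.09 log2 units (SE, adjusted p = 0.0358). PLK3, its relative, had 27.45, 28.8 and 25.8 CPM with tozasertib and 28.1, 24.3, 23.9 and 23.15 CPM with etoposide, against 21.2, 23.99, 22.4 and 19.6 CPM with DMSO. It was 1.25-fold above DMSO with tozasertib (adjusted p = 0.00548), while its etoposide and DMSO samples overlapped and the difference of 0.19 ± 0.08 missed the threshold (SE, adjusted p = 0.0563). That PLK3 difference passed without DMSO replicate 2 or etoposide replicate 4 (0.24 and 0.22, adjusted p = 0.0307 and 0.0457). These were its highest DMSO sample and its lowest etoposide sample. Leaving out either widens the difference, so those passes add no support, and with other libraries left out PLK3 missed the threshold. It passed with DESeq2 (adjusted p = 0.0226), library size alone (adjusted p = 0.025), the length trend removed (adjusted p = 0.0149) or the compared groups only (adjusted p = 0.0474). It also passed with the size factors of DESeq2 (adjusted p = 0.0297) or a replicate block in the fit (adjusted p = 0.045).

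GDF15, a secreted stress cytokine, was near or below 1 CPM. It had 1.37, 1.89 and 1.33 CPM with tozasertib and 0.562, 0.680, 0.394 and 0.279 CPM with etoposide, against 0.553, 0.426, 0.561 and 0.337 CPM with DMSO. The tozasertib samples were all above the others, 3.22-fold above DMSO and 3.14-fold above etoposide (adjusted p = 4.20e-04 and 0.00362), and etoposide and DMSO overlapped (1.02-fold, adjusted p = 0.932). CCNG1, cyclin G1, had 136, 138 and 169 CPM with tozasertib and 144, 169, 111 and 168 CPM with etoposide, against 137, 103, 104 and 141 CPM with DMSO. All groups of CCNG1 overlapped, and both drugs were 1.22-fold above DMSO (adjusted p = 0.124 and 0.0987). Without DMSO replicates 1 and 4, the higher pair of DMSO samples, CCNG1 was 0.50 log2 units above DMSO with tozasertib and 0.51 with etoposide and passed (adjusted p = 0.0153 and 0.0116). With etoposide it also passed without etoposide replicate 3, the lowest of its group (0.40, adjusted p = 0.017), or DMSO replicate 4, the highest of its group (0.37, adjusted p = 0.0488). Leaving out these samples widens the difference, so those passes add no support. Without a filter on low counts CCNG1 passed under both drugs (0.28 with tozasertib and 0.28 with etoposide, adjusted p = 0.0112 and 0.00473). With a replicate block in the fit it passed with etoposide (0.28, adjusted p = 0.0308). FBXW7, the substrate receptor of a ubiquitin ligase for cyclin E and MYC, ran from 18.3 to 20.6 CPM with tozasertib and from 15.55 to 19.2 CPM with etoposide, against 12.6 to 18.2 CPM with DMSO (adjusted p = 0.0521 with tozasertib and 0.222 with etoposide). With tozasertib FBXW7 passed without DMSO replicate 2 or DMSO replicate 4 (0.35 and 0.33, adjusted p = 0.023 and 0.0344). These were its highest DMSO samples (18.2 and 17.25 CPM). Leaving out either widens the difference, so those passes add no support, and with other libraries left out FBXW7 missed the threshold. It passed with DESeq2 (adjusted p = 0.0457), library size alone (adjusted p = 0.0258) or no filter on low counts (adjusted p = 0.0472).

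All 10 genes of cell death, mitochondria, lysosome and other roles rose under both drugs, and CLCA2 and DRAM1 among them had the largest fold changes of the set. CLCA2 (ENSG00000137975.8, chromosome 1, 86424171 to 86456553, plus strand, GRCh38) encodes a membrane protein of the chloride channel accessory family. It had 57.9, 58.5 and 76.0 CPM with tozasertib and 8.75, 7.90, 9.18 and 9.67 CPM with etoposide, against 1.11, 0.782, 1.09 and 0.708 CPM with DMSO. The 3 groups were far apart: 69.1-fold above DMSO with tozasertib, 9.57-fold with etoposide and 7.22-fold between the drugs (adjusted p = 1.44e-11, 1.77e-09 and 2.75e-08). DRAM1, a lysosomal membrane protein that links p53 to autophagy, had 294, 301 and 333 CPM with tozasertib and 289, 318, 358 and 355 CPM with etoposide, against 47.8, 46.3, 46.4 and 48.35 CPM with DMSO. The drugs overlapped each other, and every drug sample was above every DMSO sample, at 6.55-fold higher with tozasertib and 6.99-fold with etoposide (adjusted p = 2.84e-11 and 1.46e-11). SPATA18 (MIEAP), which acts in mitochondrial quality control, had 17.1, 17.1 and 19.01 CPM with tozasertib and 14.9, 13.02, 14.8 and 16.3 CPM with etoposide, against 3.08, 3.27, 2.90 and 4.51 CPM with DMSO, 5.16-fold higher with tozasertib and 4.28-fold with etoposide, without overlap. The difference of SPATA18 between the drugs missed the threshold (adjusted p = 0.199).

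The other 7 genes of this group rose by 0.45 to 1.06 log2 units with tozasertib and by 0.38 to 0.89 with etoposide. CYFIP2, a subunit of the actin-regulating WAVE complex, ran from 214 to 228 CPM with tozasertib and from 180.0 to 203 CPM with etoposide, against 90.9 to 115 CPM with DMSO (adjusted p = 1.30e-07 and 4.19e-07). RPS27L had 226, 226 and 236.5 CPM with tozasertib and 224, 226, 235 and 226 CPM with etoposide, against 152, 118, 119.8 and 104 CPM with DMSO. Its DMSO replicate 1 was the highest of that group and still below every drug sample, and the gene was 1.86-fold higher with tozasertib and 1.85-fold with etoposide. TRIAP1, which carries phospholipid within mitochondria and limits apoptosis, ran from 63.5 to 66.7 CPM with tozasertib and from 59.7 to 63.3 CPM with etoposide, against 31.7 to 47.05 CPM with DMSO, and was 1.72-fold higher with tozasertib and 1.65-fold with etoposide.

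NINJ1, which ruptures the plasma membrane of dying cells, ran from 146 to 161 CPM with tozasertib and from 124.5 to 153 CPM with etoposide, against 75.4 to 109 CPM with DMSO, and was 1.69-fold higher with tozasertib and 1.51-fold with etoposide. AEN, an apoptosis-enhancing nuclease whose promoter holds the paired match shown above, had 135, 139 and 139 CPM with tozasertib and 123, 117.5, 118 and 115 CPM with etoposide, against 91.9, 85.5, 92.75 and 87.1 CPM with DMSO. The 3 groups of AEN were apart, at 1.54-fold above DMSO with tozasertib and 1.33-fold with etoposide (adjusted p = 3.36e-07 and 9.16e-06). ANKRA2, an ankyrin repeat protein, ran from 22.0 to 23.1 CPM with tozasertib and from 17.6 to 22.7 CPM with etoposide, against 12.3 to 14.7 CPM with DMSO. BLOC1S2, a subunit of complexes that position lysosomes, ran from 64.95 to 72.6 CPM with tozasertib and from 62.2 to 69.0 CPM with etoposide, against 47.3 to 57.25 CPM with DMSO. With tozasertib and etoposide ANKRA2 was 1.70-fold and 1.56-fold higher than with DMSO, and BLOC1S2 1.36-fold and 1.30-fold. ANKRA2 overlaps UTP15 on the opposite strand, which had up to 1596 reads in a sample, where ANKRA2 had up to 1348.

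Compared with each other, the drugs differed in fewer members. Tozasertib was higher than etoposide in 10 of 32 tested members, where 5.66% of all tested genes were called higher, and lower in 1, PLK2, where 5.45% were called lower. Both drug comparisons share the DMSO samples, so the drugs are set against each other here by their own test. The median difference of the members was 0.14 log2 units and that of all tested genes 0.01. At least 2-fold higher were CLCA2 and GDF15, 2 of 32, where 2.09% of all tested genes met this rule. The other 8 were GADD45A (0.47), TP53I3 (0.43), TP53INP1 (0.29), TNFRSF10A (0.29), SESN1 (0.25), FAS (0.25), AEN (0.21) and TIGAR (0.19), in log2 units with tozasertib over etoposide. By function these were 2 of 4 tested death receptors, 1 of 4 repair genes, 4 of 6 genes of metabolism and antioxidant defence, 1 of 8 of growth arrest and growth control, and 2 of 10 of the last group. The calls of CLCA2, GDF15, GADD45A and TP53I3 held under every alternative run, while the calls of FAS, TNFRSF10A, TIGAR, SESN1, TP53INP1, AEN and PLK2 were each lost in some. FAS and TIGAR lost theirs without any 1 drug library, and with DESeq2 size factors, no filter on low counts, length-scaled counts or the length trend removed. With length-scaled counts TIGAR differed by 0.028 (adjusted p = 0.889). SESN1, TP53INP1 and AEN lost theirs with length-scaled counts and without any 1 drug library but etoposide replicate 1. The count of 10 was 4 without tozasertib replicate 1, 5 without any 1 of tozasertib replicates 2 and 4 and etoposide replicates 2, 3 and 4, and 15 without DMSO replicates 1 and 4. It was 4 with length-scaled counts, 5 without a filter on low counts and 16 with a fit of the 2 drugs alone. The difference of PLK2 missed the threshold without any 1 tozasertib replicate, without etoposide replicate 2, 3 or 4 and without DMSO replicate 3, at -0.34 to -0.30 log2 units (adjusted p = 0.0544 to 0.136).

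**Figure D4:**
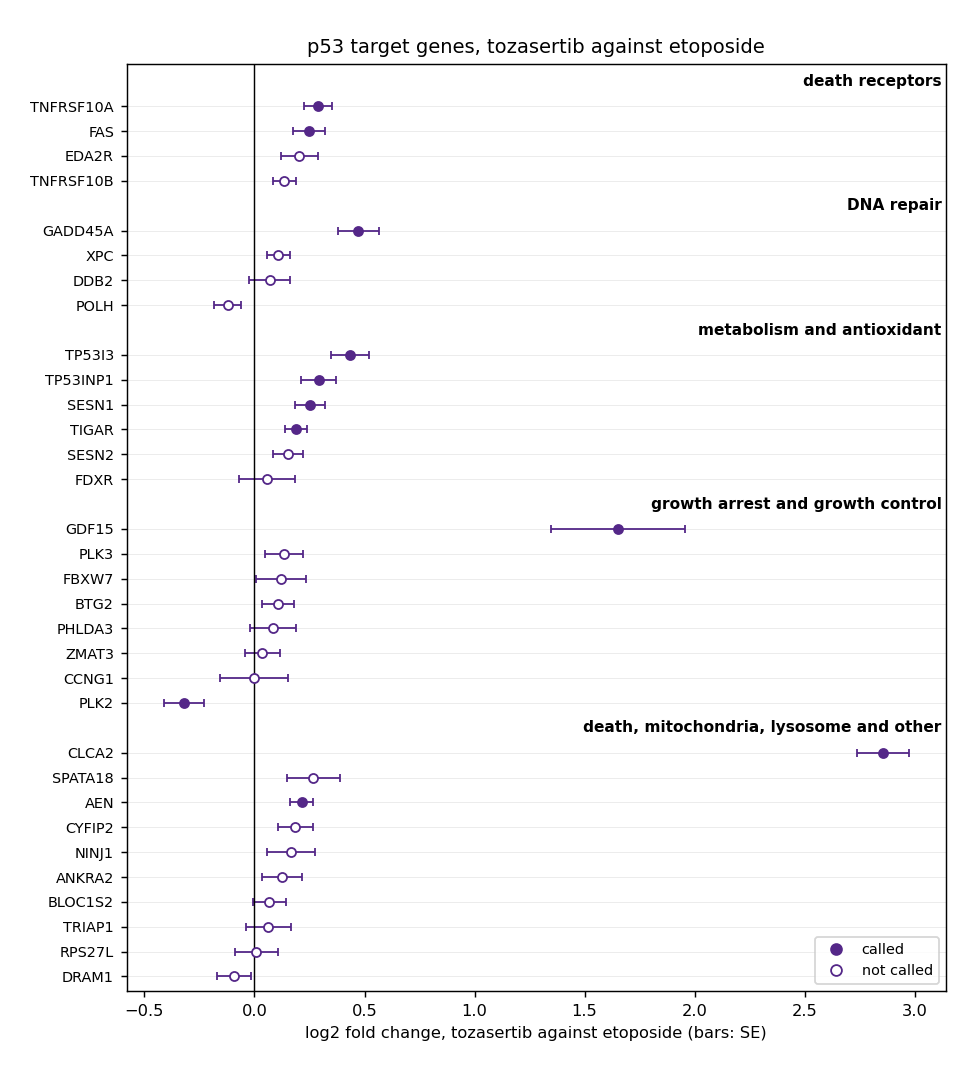
Log2 fold change of tozasertib against etoposide for the 32 tested p53 target genes, by function; bars are SE and filled points were called. CLCA2 (2.85) and GDF15 (1.65) lie far right of 0, and PLK2 (-0.32) is the filled point on the left.

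Genes that act on p53 or its pathway were found higher and lower. MDM2 had 460.4 ± 3.26 CPM with tozasertib and 340.0 ± 14.0 CPM with etoposide, against 130.6 ± 6.22 CPM with DMSO, and tozasertib was 1.35-fold above etoposide (adjusted p = 1.96e-04). MDM4, the other inhibitor of p53, had 65.7 CPM with tozasertib and 46.5 CPM with etoposide, against 54.7 CPM with DMSO, and passed no test (adjusted p = 0.188 and 0.222 against DMSO). The phosphatase PPM1D, a p53 target that switches the response off, rose by 0.81 log2 units with tozasertib and 0.74 with etoposide, and the checkpoint kinases CHEK1 and CHEK2 and the deubiquitinase USP7 fell, CHEK1 by 1.26 with tozasertib and 0.94 with etoposide.

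Among 68 other listed p53 targets, 65 were tested. With tozasertib 48 were higher and 11 lower (median 0.61), where the shares of all tested genes were 29.9% and 29.4%. With etoposide 43 were higher and 12 lower (median 0.45), where they were 27.7% and 30.6%. Tozasertib was above etoposide in 11 and below it in 2, where 5.66% and 5.45% of all tested genes were called. MDM2 and PPM1D, described above, are among them. CDKN1A had 1501 ± 14.4 CPM with tozasertib and 1408 ± 33.0 CPM with etoposide, against 458.9 ± 34.2 CPM with DMSO, higher by 1.71 and 1.62 log2 units (adjusted p = 1.58e-10 and 1.29e-10), and the difference between the drugs missed the threshold (0.09, adjusted p = 0.393). BAX, which permeabilises mitochondria, rose by 0.47 log2 units with tozasertib and 0.37 with etoposide, and RRM2B, the p53-induced ribonucleotide reductase subunit, by 1.56 with tozasertib and 1.41 with etoposide. TRIM22, also known as an interferon-induced antiviral protein, had 420.1 CPM with tozasertib and 227 CPM with etoposide, against 52.4 CPM with DMSO, and TLR3, a sensor of double-stranded RNA, had 36.0 CPM with tozasertib and 16.2 CPM with etoposide, against 8.33 CPM with DMSO. For both, tozasertib was above etoposide, by 0.89 and 1.15 log2 units (adjusted p = 8.87e-05 and 1.19e-06). Among targets that fell under both drugs, the death genes PMAIP1 (NOXA) and APAF1 fell by 0.55 and 0.66 with tozasertib and by 0.80 and 0.70 with etoposide. The death gene BBC3 (PUMA) rose instead, by 1.43 with tozasertib and 1.23 with etoposide (adjusted p = 1.73e-08 and 3.86e-08). PIDD1 rose by 0.56 with tozasertib (adjusted p = 0.00409) and passed no test with etoposide (adjusted p = 0.299). The potassium channel KCNN4, the growth factor TGFA and TNFAIP8 fell by 1.17, 1.30 and 1.24 with tozasertib and by 1.38, 1.41 and 1.10 with etoposide.

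Most members were carried by the same transcript in each group: for 31 of 34 genes the transcript with the largest share of TPM was shared by tozasertib, etoposide and DMSO. The shared lead of TIGAR, TIGAR-202, has no annotated coding region. It held 44.5% of TIGAR TPM with tozasertib, 47.6% with etoposide and 49.7% with DMSO. The genes without a shared lead were FAS, POLH and TP53I3. FAS is split by the annotation into 61 transcripts, and those leading were FAS-228 (20.4% of FAS TPM with tozasertib, 25.7% with etoposide and 9.35% with DMSO) and FAS-256 (15.3% with tozasertib, 17.5% with etoposide and 37.5% with DMSO), both without an annotated coding region. The SD of the FAS-228 share was 18.7 points with DMSO, so its share varied widely among the DMSO samples. For POLH, POLH-201 held 58.1% with tozasertib, 52.2% with etoposide and 48.7% with DMSO, and POLH-202 held 39.4% with tozasertib, 37.3% with etoposide and 51.3% with DMSO. For TP53I3, TP53I3-201 held 36.4% with tozasertib, 31.7% with etoposide and 35.1% with DMSO, and TP53I3-202 held 32.9% with tozasertib, 33.4% with etoposide and 26.9% with DMSO. The lead of POLH-202 with DMSO and that of TP53I3-202 with etoposide lay within the spread. With DMSO the SD was 10.2 points for both POLH shares, and with etoposide it was 3.20 points for TP53I3-201 and 4.83 for TP53I3-202. No test of shares was made.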

How the data were processed

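RNA from 11 samples of SK-MEL-103 cells was enriched for poly(A) and made into strand-specific libraries. The authors deposited, per transcript and sample, Salmon's estimated counts and TPM values (scaled per length and to a fixed total), without pooling. Per the submitters' processing notes, the tools were Salmon 1.9.0, cutadapt 4.7, DESeq2 1.40.2 and R 4.4.2, with build GRCh38. The study's methods name another aligner, STAR, and Salmon's options and transcript release were not given in the sources used here. Of 251645 transcripts, 99.6% were matched to a gene (GENCODE v44 annotation), leaving at most 0.359% of reads unmatched.

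Estimated counts were summed to genes and rounded, scaled by TMM, filtered with filterByExpr (17033 genes kept) and tested two-sided with edgeR 4.0.16 (glmQLFit and glmQLFTest, R 4.3.3), 1 mean per group over all 11 samples, with Benjamini-Hochberg adjustment over all genes tested. The procedure was tested on simulated data. Fold changes carry the SE of the fit, and levels the SD over samples. TPM values were summed to genes. Nothing states that replicates came from separate cultures, so p-values cover only how far these samples differ, and that may be technical spread. No replicates were duplicates: chi-square per gene was 4.23 to 76.79.

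The members and the gene lists were chosen with earlier results of these data known. Every member is named. BBC3, PIDD1 and FASLG are named outside the rules that follow. Of the other lists, CDKN1A, MDM2, BAX, MDM4, FADD, CASP8, CFLAR and DDB1 are named whatever their values. For each drug against DMSO and in each direction, the called genes with the smallest adjusted p are also named, 4 for the other p53 targets and up to 2 for each other list, these numbers including any gene named whatever its value, with genes listed under 2 lists counted in both. A result of these lists is not reported here. Alternatives were DESeq2 1.42.0 (size factors and test), library size alone, no filter on low counts, counts scaled by effective length, removal of the trend along gene length, a replicate block, fits of the compared groups only, and leaving out libraries.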

Additional observations from a re-analysis of the deposited data

Results flagged for a closer look

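In 2 of 68 groups of 4 samples examined, 1 sample lay far from the others. Both concern the decoy receptor TNFRSF10D: etoposide replicate 2 was at 0.0324 CPM and DMSO replicate 2 at 0.0355 CPM, each from 1 read, while the other samples of these groups were at 0. The rule's chance rate of about 1 in 20 groups does not apply to these 2, since any group with 1 read in all meets the rule.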

How the results depend on the processing

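Under 20 alternatives, the count of members higher than DMSO ran from 30 to 32 with tozasertib and from 27 to 30 with etoposide, and none was lower. Between the drugs the count of members higher with tozasertib was 5 without the filter on low counts, 4 with length-scaled counts and 16 with the compared groups only, and 4 to 15 with libraries left out. The count lower was 0 with library size alone and 0 with length-scaled counts, and 0 to 1 with libraries left out. Promoter matches were 3 by the paired rule, in place of 7. Signs turned only for differences that missed the threshold: GDF15 with etoposide against DMSO (-0.166 to 0.206 with libraries left out), and, between the drugs, CCNG1 (0.034 with library size alone, 0.008 with length-scaled counts, 0.009 with the compared groups only and -0.119 to 0.066 with libraries left out), ZMAT3 (-0.029 with the length trend removed), RPS27L (-0.02 with DESeq2 size factors, -0.02 with the DESeq2 test, -0.018 with length-scaled counts and -0.018 to 0.022 with libraries left out) and FDXR (-0.002 to 0.121 with libraries left out). The causes were not tested.

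Whether replicate numbers pair the samples was not settled. Of 10 same-numbered pairs, 2 had deviations correlated over 0.1 (range -0.095 to 0.227), where differently numbered pairs ran from -0.207 to 0.16. Between the drugs, same-numbered replicates 1, 2 and 4 correlated at 0.227, 0.091 and 0.123, and same-numbered pairs with DMSO at -0.095 to 0.051. In all, 5 of 11 samples correlated best with their own number. With the replicate block the members higher were 30 with tozasertib, 30 with etoposide and 8 between the drugs, with 1 lower. With the block, CCNG1 and PLK3 passed with etoposide against DMSO (0.282 and 0.193, adjusted p = 0.0308 and 0.045), CYFIP2 passed between the drugs (0.22, adjusted p = 0.0399), and FAS, SESN1 and TP53INP1 no longer did (0.26, 0.25 and 0.257, adjusted p = 0.0746, 0.0762 and 0.0703). Depth limits TNFRSF10C and TNFRSF10D, which had too few reads to test.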
